A study of Homo sapiens with 12 samples.

Results

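Genes of the androgen receptor pathway and of the prostate lineage were followed in 2 established lines grown from metastases of human prostate cancer, DU145 and PC3, and in a docetaxel-resistant subline of each. The genes were chosen by name: FOXA1, GATA2, HOXB13, TMPRSS2, KLK2, KLK3 and FKBP5. Of these 7 genes, 5 had a row among the 38611 genes of the deposited tables, and KLK2 and KLK3 were not analysed here. The 4 groups of 3 libraries were parental DU145 (labelled NC, treatment control), resistant DU145 (R), parental PC3 (NC) and resistant PC3 (R). Each resistant subline had been selected in rising doses of docetaxel, a taxane that keeps microtubules from disassembling, from 10 nm/ml in DU145 and 0.5 nm/ml in PC3, until the half-maximal inhibitory concentration had reached 1800 and 15 nm/ml. The unit is spelled as in the labels and its meaning is not stated. The sources used here do not give how many clones founded each subline or whether the resistant cells were in docetaxel at harvest. The 3 libraries of a group are not described as separate cultures, so p-values measure the spread between these libraries, which may be technical.

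The androgen receptor is a nuclear receptor that binds DNA once androgen has entered the cell. In luminal cells of the prostate it shares its enhancers with FOXA1, a pioneer factor that opens chromatin, with GATA2, a zinc finger factor, and with HOXB13, a homeobox factor of the posterior body. TMPRSS2, a transmembrane serine protease, KLK2 and KLK3, secreted kallikreins (KLK3 is prostate-specific antigen), and FKBP5, a chaperone of steroid receptors, are textbook targets of the receptor, and FKBP5 is also a target of the glucocorticoid receptor. DU145 and PC3 grow without androgen.

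All 5 listed genes lie on the minus strand, on GRCh38. FOXA1 (ENSG00000129514) spans chr14:37589552-37595249, GATA2 (ENSG00000179348) chr3:128479427-128493201 and HOXB13 (ENSG00000159184) chr17:48724763-48728750. TMPRSS2 (ENSG00000184012) spans chr21:41464305-41531098 and FKBP5 (ENSG00000096060) chr6:35573585-35728583. GATA2 overlaps GATA2-AS1 on the opposite strand, and FKBP5 overlaps other genes of the tables on the plus strand. The strand setting of the counting is not stated, so the reads of these overlapping pairs may not have been separated. Among the other genes named from the lists, the same holds for NR3C1, ESR1, PMEPA1, GATA6, STEAP4, FKBP4, KDM1A, SULT2B1, HSD17B2, IQGAP2, TGFB1I1, AKR1C3, HOXC13, HOXA13, KRT8, KRT18, KDR and MED1. HOXB9, FKBP1B, PTGES3, EPCAM, KRT15 and PECAM1 overlap a gene on their own strand, and ESR2 and CDH1 have overlaps on both. AKR1C3 also has close paralogues, AKR1C1 among them, that may share its reads. The 250 bases before the first start of FOXA1, GATA2 and FKBP5 are printed because these genes were expressed in both lines and changed in resistant PC3 (and FOXA1 also in resistant DU145). They come from RefSeq (GRCh38.p14), in which 5 of the 7 genes matched by symbol. Each is written 5′ to 3′ on the minus strand and ends at the base before the start. Capitals mark matches to the letters searched on both strands.
FOXA1 (chr14:37595250-37595499): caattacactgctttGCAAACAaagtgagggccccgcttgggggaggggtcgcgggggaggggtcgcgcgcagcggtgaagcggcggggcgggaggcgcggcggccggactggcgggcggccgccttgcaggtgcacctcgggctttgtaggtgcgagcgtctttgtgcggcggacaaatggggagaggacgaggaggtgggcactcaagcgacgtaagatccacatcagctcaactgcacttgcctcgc
GATA2 (chr3:128493202-128493451): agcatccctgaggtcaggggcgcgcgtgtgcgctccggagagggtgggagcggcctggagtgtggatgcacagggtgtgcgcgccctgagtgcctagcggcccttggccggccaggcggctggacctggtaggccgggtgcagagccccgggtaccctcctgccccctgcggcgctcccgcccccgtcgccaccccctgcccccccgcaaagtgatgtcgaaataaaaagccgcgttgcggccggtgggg
FKBP5 (chr6:35728584-35728833): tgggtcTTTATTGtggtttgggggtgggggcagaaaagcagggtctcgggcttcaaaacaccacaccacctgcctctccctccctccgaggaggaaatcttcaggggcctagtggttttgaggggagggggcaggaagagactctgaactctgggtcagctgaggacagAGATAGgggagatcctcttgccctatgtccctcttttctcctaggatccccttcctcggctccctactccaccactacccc
The forkhead letters TGTTTAC or TGTTTGC matched once in the FOXA1 window, as GCAAACA 235 bases before the start. At least 1 match to these letters was present in 6.09% of 35116 RefSeq windows of this length. The FKBP5 window held AGATAG 81 bases before the start. The GATA letters searched were AGATAA or AGATAG and likewise TGATAA or TGATAG, and 22.3% of all windows held such a match. It also held TTTATTG 244 bases before the start, the reverse complement of the HOXB13 letters CAATAAA, which 3.67% of windows held. The GATA2 window held none of the letters searched, which says only that they are not in these 250 bases. RefSeq has a further start of GATA2 (window chr3:128488531-128488780) and of FKBP5 (window chr6:35688916-35689165). Their windows held none of the letters searched and are not printed. The steroid receptor half-site AGAACA was in none of the 3 printed windows and in 12.4% of all windows. These matches are a description of letters and not binding sites.

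Levels within a gene are CPM, the counts as a share of the library total scaled with TMM. Levels between genes are FPKM, which are per length, as deposited. Changes are log2 ratios with SE from edgeR's quasi-likelihood fit over 24128 genes. A gene was called when its Benjamini-Hochberg adjusted p over those genes was under 0.05. Library totals lay between 62513103 and 72530254 counts, and 25695 to 26401 genes had a count above 0. CTNNA1, a catenin known to be deleted in PC3, was at 519 and 383 CPM in parental and resistant DU145 and at 2.91 and 2.23 CPM in parental and resistant PC3, as the line labels say. Luminal keratins and EPCAM were present in all 4 groups. The leukocyte markers together reached at most 1.02 CPM in any library.

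In parental DU145, FKBP5 had the highest level of the listed genes per length (13.6 ± 0.341 FPKM, SD, n = 3 throughout), followed by FOXA1 (9.33 ± 0.199 FPKM) and GATA2 (5.81 ± 0.473 FPKM). HOXB13 (0.123 ± 0.0156 FPKM) and TMPRSS2 (0.00623 ± 0.0108 FPKM) were close to 0. In parental PC3 the order was another, with HOXB13 at 295 ± 2.29 FPKM, FOXA1 at 30.5 ± 0.794, GATA2 at 14.8 ± 1.03, TMPRSS2 at 5.55 ± 0.406 and FKBP5 at 2.21 ± 0.268 FPKM. In resistant DU145 the FOXA1 level (17.8 ± 0.466 FPKM) stood above that of FKBP5 (13.1 ± 0.833 FPKM). In resistant PC3, HOXB13 stayed highest (40.9 ± 4.33 FPKM) ahead of FOXA1 (11.3 ± 0.116 FPKM), and FKBP5 (3.51 ± 0.119 FPKM) stood above GATA2 (0.537 ± 0.0603 FPKM) and TMPRSS2 (0.211 ± 0.0461 FPKM). Neighbours in each of these orders did not overlap between their libraries, except HOXB13 and TMPRSS2 in resistant DU145, where both had a library at 0.

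**Figure D1:**
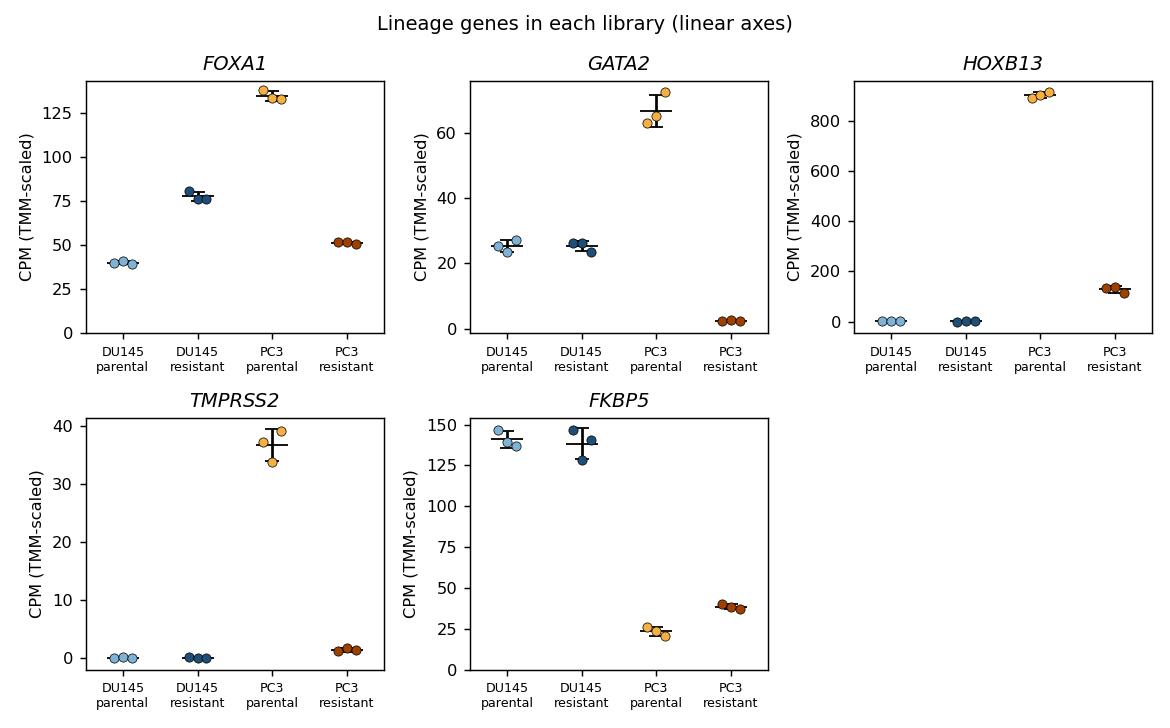
Level of FOXA1, GATA2, HOXB13, TMPRSS2 and FKBP5 in each of the 12 libraries (points, CPM, linear axes), with the mean (bar) and SD (whiskers) of each group of 3. FOXA1, GATA2, HOXB13 and TMPRSS2 were highest in parental PC3 and FKBP5 was highest in DU145; GATA2 and TMPRSS2 were close to 0 in resistant PC3.

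Comparing each resistant subline with its parent asks which lineage genes changed with the selection. In PC3 the 3 lineage factors and TMPRSS2 fell and FKBP5 rose, so that 5 of 5 genes were called, where 44% of all genes tested were called. In RNA of whole cultures, fewer cells expressing a gene and less RNA per cell cannot be told apart. The parental and resistant PC3 libraries of all 5 genes did not overlap, as was the case for 54.4% of genes tested. In DU145 only FOXA1 was called, 1 of 5 genes against 39.6% of all genes tested. It was also the only one without overlap in DU145, where 51.2% of genes tested had none. All 5 genes passed the filter on low counts, but TMPRSS2 did so only through PC3, and HOXB13 had few counts in DU145. The difference of the changes between the lines was called for all 5 genes and for 42.1% of genes tested. The median log2 change over all genes tested was 0 in both lines.

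FOXA1 moved in opposite directions. In DU145 it rose from 40.0, 41.1 and 39.2 CPM in the parental libraries to 80.7, 76.3 and 76.5 CPM in the resistant ones. Every resistant library was above every parental one, and the change was 0.96 ± 0.05 on the log2 scale (1.94-fold, edgeR adjusted p = 1.79e-10). In PC3 it fell from 139, 134 and 133 CPM to 51.9, 51.7 and 50.8 CPM. All resistant PC3 libraries were below all parental ones, with a change of -1.39 ± 0.05 (2.62-fold lower, adjusted p = 2.46e-12). The change in PC3 minus that in DU145 was -2.35 ± 0.07 (adjusted p = 3.24e-13).

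GATA2 fell the furthest of the listed genes in PC3. Its parental PC3 libraries were at 63.0, 65.0 and 72.3 CPM and its resistant ones at 2.29, 2.79 and 2.37 CPM. The groups were far apart, at -4.75 ± 0.11 (26.9-fold lower, adjusted p = 5.06e-14), and 3.92% of all genes tested had a larger absolute change. In DU145 the parental libraries were at 25.2, 23.5 and 27.2 CPM and the resistant ones at 26.1, 26.4 and 23.5 CPM. These overlapped, and the 95% interval of the log2 change ran from -0.21 to 0.21. The change differed between the lines by -4.75 ± 0.14 (adjusted p = 5e-13). GATA2-AS1, the antisense gene, had 35.1 to 50.1 counts per 100 GATA2 counts in DU145 libraries and 7.14 to 22.3 in PC3 libraries. It fell in PC3 as well, from 6.10 ± 0.875 to 0.406 ± 0.187 CPM (-3.91 ± 0.27, adjusted p = 5.91e-09), and was not called in DU145 (11.5 ± 0.432 and 9.58 ± 1.02 CPM, adjusted p = 0.41).

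HOXB13 was by far the most abundant listed gene of PC3 and fell there from 890, 901 and 912 CPM to 132, 140 and 113 CPM. The groups did not overlap, with a change of -2.81 ± 0.27 (7.02-fold lower, adjusted p = 2.36e-05). In spite of the fall, resistant PC3 stayed above resistant DU145 by 8.25 ± 0.42 log2 units (adjusted p = 1.43e-07). DU145 had 22, 27 and 24 HOXB13 counts in the parental libraries and 0, 24 and 59 in the resistant ones. These overlapped and gave a change of 0.21 ± 0.76 (95% interval -1.54 to 1.96). The difference of the changes, -3.02 ± 0.83 (adjusted p = 0.017), was no longer called without the third resistant DU145 library (-1.82, adjusted p = 0.156).

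TMPRSS2 fell by nearly as much as GATA2. In PC3 it went from 37.3, 33.8 and 39.2 CPM to 1.17, 1.77 and 1.36 CPM, with no overlap, a change of -4.68 ± 0.46 (25.7-fold lower, adjusted p = 3.35e-06). On log2(FPKM + 1) with limma, which compresses low levels, the change was -2.43. In DU145 the gene was at or close to 0, with 0, 8 and 0 counts in the parental libraries and 8, 0 and 6 in the resistant ones. Both DU145 groups held a library without a count, and the change was 0.80 ± 1.06 (adjusted p = 0.628). Without the second parental library, which held all of that group's counts, the gene was called there (5.28, adjusted p = 0.0252). The changes differed between the lines by -5.48 ± 1.21 (adjusted p = 0.00288), and by -9.95 without that library.

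FKBP5, the steroid receptor chaperone, was the listed gene that rose in PC3. It went from 26.3, 23.7 and 20.7 CPM to 40.1, 38.5 and 37.1 CPM. Every resistant PC3 library was above every parental one, at 0.71 ± 0.08 (1.63-fold, adjusted p = 1.08e-06), and 43.5% of all genes tested had a larger absolute change. In DU145 it lay at 147, 140 and 137 CPM in the parental and 147, 128 and 140 CPM in the resistant libraries. These overlapped, with a 95% interval of the log2 change from -0.19 to 0.14. The rise in PC3 exceeded the change in DU145 by 0.74 ± 0.10 (adjusted p = 2.8e-05).

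**Figure D2:**
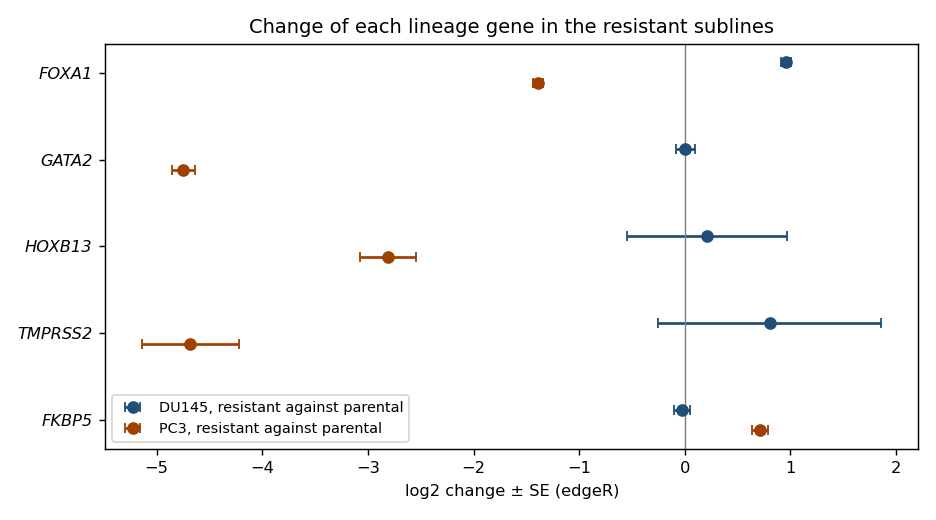
Log2 change of each listed gene in the resistant subline against its parent (points) with SE (bars), DU145 and PC3 in separate colours. FOXA1 lies on opposite sides of 0 in the 2 lines, GATA2 lies at 0.00 in DU145 and -4.75 in PC3, and the wide bars of HOXB13 and TMPRSS2 in DU145 come with counts near 0.

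The parental lines themselves differed in all 5 genes, where 60.3% of genes tested were called. FOXA1 was 3.37-fold higher in parental PC3 than in parental DU145 (1.75 ± 0.05) and GATA2 was 2.64-fold higher (1.40 ± 0.09). HOXB13 was higher by 11.27 ± 0.44 and TMPRSS2 by 9.78 ± 0.66 log2 units. These last values rest on few DU145 counts: without the second parental DU145 library the TMPRSS2 difference was 14.23, and with limma on log2(FPKM + 1) it was 2.70. FKBP5 was lower in parental PC3, by 2.58 ± 0.08 log2 units (5.98-fold). Between the resistant sublines 59.8% of genes tested were called, and so were all 5 genes. FOXA1 (-0.60 ± 0.05) and GATA2 (-3.35 ± 0.10) were now lower in PC3 than in DU145, the reverse of the parental lines. FKBP5 stayed lower in PC3 (-1.84 ± 0.08), and TMPRSS2 stayed higher (4.30 ± 0.62, or 0.26 with limma on log2(FPKM + 1)). These comparisons share libraries with the comparisons within each line and are not independent of them.

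Other steroid receptors were followed as well. The 5 receptor genes NR3C1, NR3C2, PGR, ESR1 and ESR2 all rose in resistant PC3, with a median log2 change of 2.07, where 22.4% of genes tested rose and 21.6% fell. In DU145, where 18.9% of genes tested rose and 20.7% fell, only the glucocorticoid receptor was called, and it fell. ESR1 was called higher in DU145 by limma on log2(FPKM + 1) (adjusted p = 0.0383) or log2(FPKM + 0.1) (adjusted p = 0.0242). With the DU145 groups alone ESR1 was also called higher (adjusted p = 0.0479). PGR was called lower in DU145 without the third resistant library (-7.01, adjusted p = 0.00249). NR3C1, the glucocorticoid receptor, was the most abundant of these 5 transcripts in DU145, at 23.4 ± 0.855 FPKM in the parental line. It fell in DU145 from 209 ± 10.0 to 164 ± 13.4 CPM (-0.35 ± 0.06, adjusted p = 9.71e-05) and rose in PC3 from 36.5 ± 0.518 to 53.3 ± 1.07 CPM (0.55 ± 0.06, adjusted p = 8.4e-07). In resistant PC3, NR3C2, the mineralocorticoid receptor, was at 6.0 ± 0.154 FPKM and NR3C1 at 5.64 ± 0.0768 FPKM. NR3C2 had risen there from 10.8 ± 0.524 to 40.9 ± 0.856 CPM (1.92 ± 0.12, adjusted p = 2.52e-09). ESR2, an oestrogen receptor, rose from 2.03 ± 0.575 to 8.52 ± 0.740 CPM (adjusted p = 0.00259). PGR, the progesterone receptor, had no count in parental PC3 and 76, 66 and 119 counts in resistant PC3. Against a floor of 3 counts over the parental group it was 84.4-fold higher, a ratio that may be too high (edgeR adjusted p = 0.00136). ESR1, the other oestrogen receptor, had 0, 0 and 7 counts against 31, 26 and 23 (adjusted p = 0.00708), and was not called with limma on log2(FPKM + 1) (adjusted p = 0.38).

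**Figure D3:**
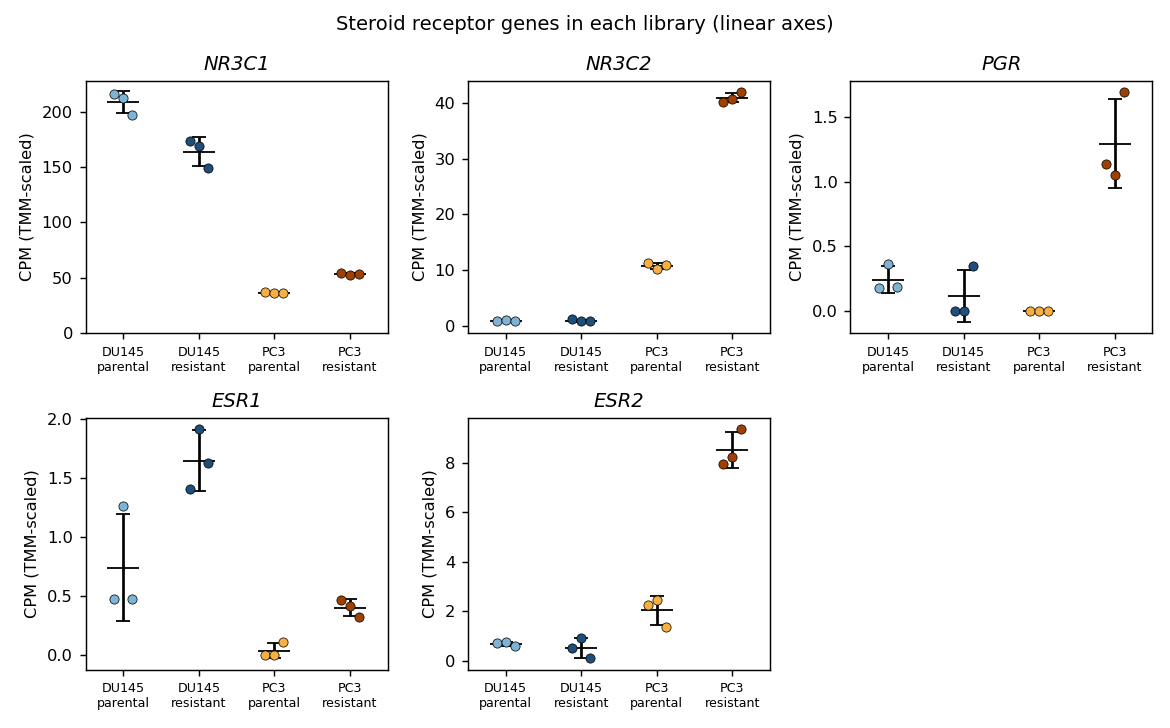
Level of 5 steroid receptor genes in each library (points, CPM, linear axes), with the mean and SD of each group. All 5 were higher in resistant than in parental PC3, and NR3C1 was higher in DU145 than in PC3.

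Genes known to answer to androgen did not move one way. Of 39 symbols listed, 1 of them an older name of another, 38 were in the tables and 34 were tested. In PC3 18 fell, 7 rose and 9 were not called, with a median log2 change of -0.37, and in DU145 9 fell, 11 rose and 14 were not called (median -0.04). Over the 32 with more than 3 counts in at least 1 DU145 group the median was -0.08. Of all genes tested, 21.6% fell and 22.4% rose in PC3, and 20.7% fell and 18.9% rose in DU145. These shares also stand beside the list and marker counts given below. PMEPA1, a membrane protein also induced by TGF-beta, fell in PC3 from 22.9 ± 2.87 to 0.542 ± 0.217 CPM (41.7-fold lower, adjusted p = 4.86e-11). In DU145 it rose from 4.85 ± 0.948 to 46.7 ± 2.21 CPM (9.62-fold, adjusted p = 1.92e-09). C1orf116 rose in PC3 (6.56-fold) and fell in DU145 (5.08-fold lower), so that both genes moved in opposite directions in the lines. The metalloreductase STEAP4 fell in PC3 from 62, 62 and 23 counts to 0, 4 and 19 (adjusted p = 0.0198). STEAP4 was not called when the first or second parental or the second resistant PC3 library was left out (adjusted p from 0.0524 to 0.0727). Nor was it called with limma on log2(FPKM + 1) (adjusted p = 0.0854). In DU145, IQGAP2, a scaffold protein, rose (4.63 ± 0.62, adjusted p = 1.65e-05) and SPDEF, an epithelial ETS factor, fell (-3.02 ± 0.48, adjusted p = 0.000163). SPDEF fell in PC3 too (-1.77 ± 0.33, adjusted p = 0.00056). IQGAP2 was called lower in PC3 (-1.59 ± 0.57, adjusted p = 0.0346), but not with limma on log2(FPKM + 1) (adjusted p = 0.163) or log2(FPKM + 0.1) (adjusted p = 0.0672). That call was also lost without the second or the third parental PC3 library, any 1 resistant PC3 library, or the second or the third resistant DU145 library (adjusted p from 0.0502 to 0.152).

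Of 17 glucocorticoid-response genes tested, 7 rose and 6 fell in PC3 (median 0.04), and 9 rose and 5 fell in DU145 (median 0.51). LCN2, a secreted siderophore-binding protein, fell in both lines, from 95.7 ± 7.17 to 1.49 ± 0.789 CPM in PC3 and from 11.6 ± 1.39 to 0.329 ± 0.193 CPM in DU145. CRISPLD2 rose in both lines, 14.1-fold in PC3 (adjusted p = 5.82e-07) and 20.0-fold in DU145 (adjusted p = 2.07e-07). ANGPTL4, an inhibitor of lipoprotein lipase, fell in PC3 (17.1-fold lower, adjusted p = 1.01e-11) and rose in DU145 (1.86-fold, adjusted p = 5.6e-05). Of 25 coregulators and chaperones of the androgen receptor tested, 13 rose and 5 fell in PC3 (median 0.17), and 6 rose and 9 fell in DU145 (median -0.03). In PC3 the largest changes were rises of the HSP90 co-chaperones PTGES3 (2.02-fold) and FKBP4 (1.74-fold) and of the demethylase KDM1A (1.69-fold). In DU145 FKBP4 rose (1.12-fold), KDM1A fell (1.14-fold lower) and PTGES3 was not called. PTGES3 was called higher there with DESeq2 (adjusted p = 0.0345) and in the DU145 groups alone (adjusted p = 0.027). It was also called without the first parental DU145 library (adjusted p = 0.0442) or the second resistant PC3 library (adjusted p = 0.0376). In DU145 the adaptor TGFB1I1 rose (6.99-fold) and the cofactor TRIM24 fell (1.81-fold lower), while in PC3 TRIM24 rose (1.33-fold) and TGFB1I1 was not called. TGFB1I1 was called lower in PC3 with limma on log2(FPKM + 1) (adjusted p = 0.0276) and in the PC3 groups alone (adjusted p = 0.0175). Of 10 androgen synthesis and metabolism genes tested, 4 fell and 2 rose in PC3, and 3 fell and 2 rose in DU145. AKR1C1 rose in both lines, 3.00-fold in PC3 (adjusted p = 3.36e-05) and 2.1-fold in DU145 (adjusted p = 0.00144). The sulfotransferase gene SULT2B1 had 24, 12 and 33 counts in parental and none in resistant PC3. Against a floor of 3 counts over the resistant group it was 23.5-fold lower, a ratio that may be too high. HSD17B2, which inactivates androgens by oxidation, fell in PC3 from 22.8 ± 1.23 to 3.07 ± 0.826 CPM (7.44-fold lower, adjusted p = 9.12e-07) and had no count in any DU145 library. AKR1C3, which makes testosterone from androstenedione, fell in DU145 from 57.9 ± 4.11 to 8.59 ± 0.767 CPM (6.73-fold lower, adjusted p = 3.2e-11) and was not called in PC3 (adjusted p = 0.554).

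**Figure D4:**
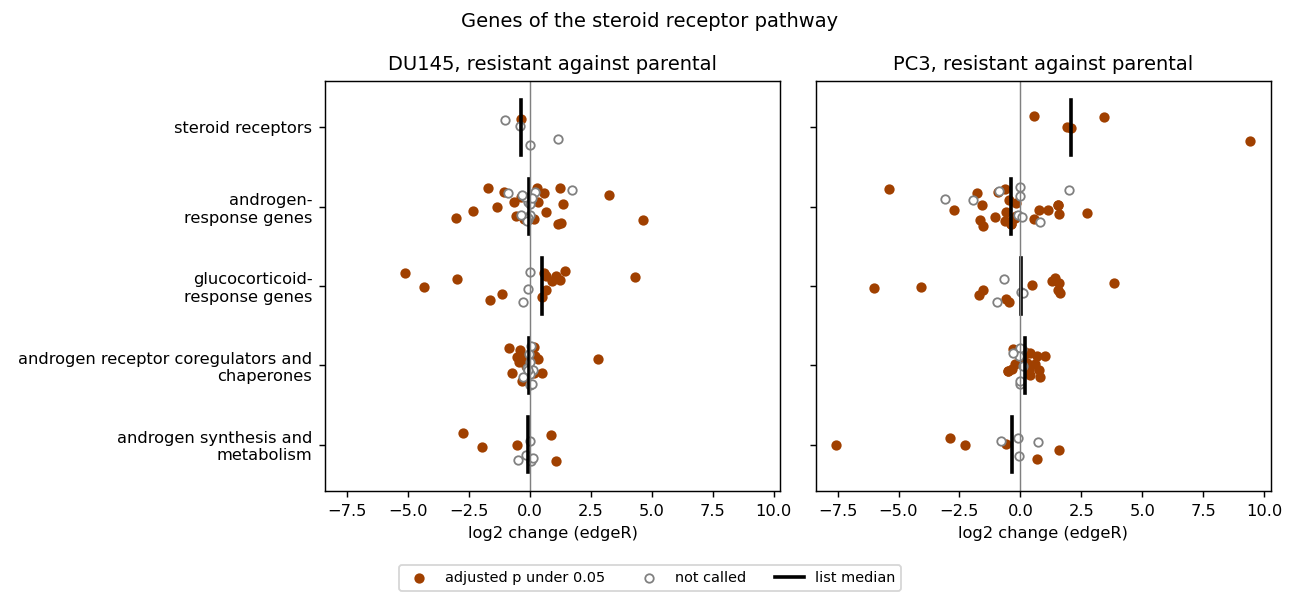
Log2 change in resistant against parental DU145 (left) and PC3 (right) for each tested gene of 5 lists (points, spread vertically at random within a list; filled where the adjusted p was under 0.05), with the list median (black line). All 5 steroid receptors lie above 0 in PC3; the other lists spread to both sides of 0 in both lines. Points of PGR and SULT2B1 in PC3 are fitted values against a group without counts.

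Relatives of the listed factors were followed in both lines. FOXA2, a paralogue of FOXA1, was at 50.2 ± 2.95 and 52.8 ± 1.67 CPM in parental and resistant PC3 and was not called there. In DU145 it had 0, 0 and 8 counts against 22, 17 and 12 and was called (adjusted p = 0.00426), but not in a fit of the DU145 groups alone (adjusted p = 0.149). GATA6, an endodermal GATA factor, rose in both lines, from 2.76 ± 0.493 to 18.5 ± 0.643 CPM in PC3 and from 0.863 ± 0.268 to 3.69 ± 0.946 CPM in DU145. HOXB9 lies 98.4 kb from HOXB13 in the same cluster and rose in both lines, from 0.224 ± 0.0861 to 5.34 ± 0.437 CPM in PC3 and from 8.01 ± 2.31 to 25.7 ± 3.76 CPM in DU145. HOXC13, a posterior HOX gene of another cluster, fell in DU145 from 4.35 ± 0.646 to 0.638 ± 0.0597 CPM and rose in PC3 from 6.39 ± 0.264 to 9.95 ± 0.605 CPM (adjusted p = 0.00994). HOXA13 fell in both lines, from 115.9 ± 1.32 to 43.5 ± 4.05 CPM in PC3 (adjusted p = 3.75e-06) and from 2.37 ± 0.502 to 1.01 ± 0.360 CPM in DU145 (adjusted p = 0.000464). Of 11 HOXB and HOX13 genes tested, 4 rose and 3 fell in PC3, and 3 rose and 2 fell in DU145. FKBP1B had the largest change of the FKBP family in each line, with 0, 20 and 2 counts against 94, 118 and 145 in DU145, and 110, 108 and 101 against 6, 0 and 0 in PC3. Of 15 FKBP genes tested, 3 rose and 6 fell in PC3, and 5 rose and 8 fell in DU145. Of 10 other kallikrein genes in the tables only 1 passed the filter, and it was not called in either line.

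Genes next to the listed ones were counted over 500 kb on each side. Over all genes tested, 21.6% fell and 22.4% rose in PC3, and 20.7% fell and 18.9% rose in DU145. In PC3, 3 of the 6 genes tested around FOXA1 fell and none rose, 13 of 28 around HOXB13 fell and 3 rose, and 12 of 23 around FKBP5 fell and none rose. Around GATA2, 3 of 13 fell and 4 rose, and around TMPRSS2, 2 of 13 fell and 2 rose. In DU145, 2 of 6 fell and 1 rose around FOXA1, 3 of 13 fell and 2 rose around GATA2, and 2 of 28 fell and 6 rose around HOXB13. Around TMPRSS2, 1 of 13 fell and 5 rose there, and around FKBP5, which was not called in DU145, 1 of 23 fell and 9 rose. The following neighbours were chosen after their values were seen. TTC6 starts 0.6 kb from FOXA1 and fell in PC3 from 22.8 to 2.80 CPM (-3.03 ± 0.24, adjusted p = 4.47e-08). In DU145, where FOXA1 rose, TTC6 was called lower, from 3.64 to 2.37 CPM (-0.62 ± 0.23, adjusted p = 0.048), but not with RLE factors (adjusted p = 0.0523), limma, a replicate block (adjusted p = 0.0694) or the DU145 groups alone (adjusted p = 0.0708). That call was also lost when any 1 parental library of either line, the first or the third resistant DU145 library or the second resistant PC3 library was left out (adjusted p from 0.0539 to 0.182). MIPOL1, 38.3 kb away, fell from 51.7 to 32.9 CPM (-0.65 ± 0.13), and was not called in DU145 (adjusted p = 0.389). PRAC1, 2.2 kb from HOXB13, fell from 35.3 to 9.62 CPM (-1.88 ± 0.20, adjusted p = 9e-06) and had no count in DU145. PRAC2, the tested gene nearest to HOXB13, was not called in PC3, at 10.1 CPM in the parental and 8.29 CPM in the resistant line (-0.29 ± 0.36, adjusted p = 0.58).

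Across the 12 libraries, the protein-coding genes with the pattern closest to FOXA1 among 13065 compared were MYO1D, an unconventional myosin (Pearson r of log2(CPM + 1) 0.990), SLC43A3 (0.989) and SPATA20 (0.985). MYO1D was at 5.30 ± 0.587 CPM in parental and 59.6 ± 2.55 CPM in resistant DU145, and at 269 ± 28.9 CPM in parental and 20.0 ± 1.09 CPM in resistant PC3. Closest to GATA2 were EXOC6 (0.992), NLRX1 (0.991) and ITGB2, an integrin subunit (0.990). HOXB13 was nearest to SATB1, a chromatin organiser (0.998), SHC4 (0.998) and TMTC1 (0.998). TMPRSS2 was nearest to SLC14A1 (0.997), RIMS1 (0.997) and ZYX (0.996), and FKBP5 to SPAG5 (0.997), MED1 (0.996) and MELK (0.996). The 12 points fall into 4 groups of 2 lines, so these values describe a shared order of group levels.

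Markers of cell types moved beside these changes. The luminal markers KRT8, KRT18, KRT19, EPCAM and CDH1 summed to 896 to 934 CPM in parental and 1530 to 1570 CPM in resistant DU145, where 4 rose and 1 fell. In PC3 they summed to 1030 to 1040 CPM and 551 to 585 CPM, and all 5 fell. The 6 markers of fibroblasts and smooth muscle summed to 113 to 118 CPM in parental and 12.3 to 18.1 CPM in resistant PC3, where 2 fell and 4 were not called, and the 5 endothelial markers to 177 to 232 and 53.8 to 76.8 CPM. Of the endothelial markers KDR fell and 1 was not called, while PECAM1 and VWF were called higher (VWF with no count in parental and 26, 0 and 22 counts in resistant PC3). The 5 basal markers summed to 66.6 to 87.7 CPM in parental and 19.7 to 24.9 CPM in resistant PC3, where KRT15, the only one tested, fell. Neuroendocrine markers stayed between 1.38 and 3.44 CPM in all libraries. The part of these markers in the changes of the listed genes was not tested.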

How the data were processed

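RNA of 12 libraries, 4 groups of 3, was measured by paired-end sequencing after oligo(dT) selection, with a dUTP-marked second strand, per the labels' protocols. Per library, the authors deposited whole-number counts and FPKM of 38611 genes. The FPKM were proportional to count over library total within 0.1% for 12562 of 12579 genes compared, and 71 genes had none. Tools in the submitters' processing notes are HISAT2 2.0.4, cutadapt 1.9, StringTie 1.3.4d, edgeR and DESeq2, and their build is hg18. The deposited coordinates are those of GRCh38: of 37385 genes shared with GENCODE 29, 37340 overlapped and 23671 matched at both ends. The counting program is not given in the sources used here.

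The members and gene lists were chosen with earlier results of these data known, and 2 further genes of the lists are not reported here. From the deposited counts, edgeR 4.0.16 in R 4.3.3 (filterByExpr, TMM, robust estimateDisp and glmQLFit) fitted 1 mean per group over all 12 libraries, with 8 residual degrees of freedom, and two-sided quasi-likelihood F tests were adjusted by Benjamini-Hochberg over 24128 genes. SE is the log2 change over the square root of F. Intervals (95%) use 8 degrees of freedom. Scripts were tested on simulated data. Every listed gene was named. Genes named from a list were among the at most 4 per comparison called with the largest change, and not all of those were named. Every steroid receptor, overlapping genes and the 3 genes most like each listed gene were named as well. Alternatives were RLE factors, library totals, no filter, DESeq2 1.42.0, limma 3.58.1 on log2(FPKM + 1) or log2(FPKM + 0.1), the compared groups alone, a replicate block and each library left out.

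At mean counts of 5 to 10 the variance within groups was on average 7.69 to 8.39 times the mean, so counts are not treated as independent molecules, and folds against a floor of 3 counts over a group may be too high.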

Additional observations from a re-analysis of the deposited data

Results flagged for a closer look

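For 27 of the genes named from the lists or as neighbours, the listed genes included, the change in PC3 minus the change in DU145 (log2) was called. The test was edgeR's quasi-likelihood test of the interaction, with Benjamini-Hochberg adjustment over 24128 genes, of which 42.1% were called. Beyond the listed genes and the steroid receptors, most of these genes were named for large changes or chosen after their values were seen. That share is therefore no measure for the 27, and the cell type markers were not counted among them. The 27 include all 5 listed lineage genes, with FOXA1 at -2.35, GATA2 at -4.75, HOXB13 at -3.02, TMPRSS2 at -5.48 and FKBP5 at 0.74. HOXB13 was not called without the third resistant DU145 library (-1.82), and TMPRSS2 was at -9.95 without the second parental one. Of the steroid receptors, NR3C1 was at 0.89, NR3C2 at 1.9, PGR at 10.45 and ESR2 at 2.48, with ESR1 not called (2.26, adjusted p = 0.145; called without the third parental PC3 library, 6.59). PGR was at 16.42 without the third resistant DU145 library. The PGR value is a fitted one against a group without counts and is no bound. GATA2-AS1 was at -3.65, beside GATA2. Of the androgen-response genes, PMEPA1 was at -8.65 and C1orf116 at 5.06, each called in opposite directions in DU145 and PC3. HOXB9, which rose in both lines, was at 2.88 (0.05 and not called with limma on log2(FPKM + 1)), HOXC13 was at 3.4, FOXA2 at -2.57 (not called with limma on log2(FPKM + 1)) and FKBP1B at -9.69. ANGPTL4 was at -4.99 and IQGAP2 at -6.22. Of the coregulators, PTGES3 was at 0.92, FKBP4 at 0.64, KDM1A at 0.94, TRIM24 at 1.27 and TGFB1I1 at -3.12. AKR1C3 was at 2.66, and SULT2B1 at -7.08, a fitted value against a group without counts that was not called with limma or with a replicate block (adjusted p = 0.0523). The FOXA1 neighbours TTC6 and MIPOL1 were at -2.41 and -0.81. LCN2 (-0.88, adjusted p = 0.263) and GATA6 (0.65, adjusted p = 0.146), which changed the same way in both lines, were not called in this test. Both were called with limma on log2(FPKM + 1) (-2.21 and 1.06) and on log2(FPKM + 0.1) (-1.33 and 0.87). LCN2 was also called without the second resistant PC3 library (-1.32).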

How the results depend on the processing

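The count of listed genes called was 5 in PC3 and between the lines under every alternative run. For the difference of changes it was 5, and 4 without the third resistant DU145 library. In DU145 it was 1, and ranged from 1 to 2 when each library was left out (2 without the second parental DU145 library). The replicate numbers do not pair the libraries (correlations of deviations from -0.11 to 0.077), and with a replicate block the counts were again 1 in DU145 and 5 in PC3. As FPKM ratios, the FOXA1 change in PC3 was -1.431 and its difference between the resistant lines -0.657, in the same direction as in CPM. Some DU145 changes that were not called changed sign. With library totals alone GATA2 was at -0.022 and NR3C2 at -0.002. With limma on log2(FPKM + 1) GATA2 was at -0.018 and NR3C2 at -0.001, and on log2(FPKM + 0.1) GATA2 was at -0.020, HOXB13 at -0.105 and NR3C2 at -0.007. With single libraries left out GATA2 ranged from -0.046 to 0.065, HOXB13 from -0.980 to 0.804, FKBP5 from -0.064 to 0.024, NR3C2 from -0.136 to 0.119, ESR2 from -1.152 to 0.087, SULT2B1 from -1.107 to 0.12 and MIPOL1 from -0.009 to 0.278. The ESR1 difference between the lines, not called, was -0.051 and -0.205 with limma on log2(FPKM + 1) and log2(FPKM + 0.1). That of SPDEF, also not called, was -1.079 and called with limma on log2(FPKM + 1). With the opposite sign, it was called with DESeq2 (1.273, adjusted p = 0.00893) and without the third resistant DU145 library (2.116, adjusted p = 0.0145). The HOXA13 difference, not called, ranged from -0.444 to 0.013 with single libraries left out. With limma on log2(FPKM + 1) it was called (-1.052, adjusted p = 1.48e-05). The cause was not tested. Limma on log2(FPKM + 1) gave smaller changes at low levels, such as -2.18 for PMEPA1 in PC3, still called. Limits are the 3 libraries a group, counts near 0 for HOXB13 and TMPRSS2 in DU145, an unknown strand setting, and the absence of KLK2 and KLK3 from the comparisons.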
